A study of Mus musculus with 20 samples.

Results

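The regions described here are the MYC binding sites that lay in open chromatin away from the promoter mark H3K4me3, in cells sorted as mouse hematopoietic stem cells (HSC). A MYC ChIP-seq peak was taken as distal and open when it overlapped no H3K4me3 peak of either genotype and overlapped an ATAC-seq peak in the second wild-type library (WT 2) and in the second knockout library (KO 2). The rule was applied to each MYC list apart. It kept 3489 of 22086 KO peaks (15.8%, 95% CI 15.3 to 16.3) and 2067 of 8774 WT peaks (23.6%, 95% CI 22.7 to 24.5). All intervals are exact Clopper-Pearson intervals and cover counting error only. Neighbouring regions are not replicates of a condition. The sites were thus selected on the MYC, H3K4me3 and second-library ATAC peaks, and those values are given below as description. The number of sites depended on the ATAC libraries asked for: 1269 KO and 1073 WT peaks qualified without WT 2 (with WT 1 in its place), and 1542 KO and 1128 WT peaks without KO 2 (with KO 1 in its place).

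HSC were sorted by flow cytometry from adult mice given poly(I:C), a double-stranded RNA that induces interferon and with it the Mx1-Cre transgene. KO MycHet mice were Mx1-Cre+/-;mTORflox/flox;c-Myc+/flox, KO mice were Mx1-Cre+/-;mTORflox/flox, and WT mice were Mx1-Cre-/-;mTORflox/flox. All of them thus carried floxed Mtor alleles and had received poly(I:C), and Mx1-Cre acts in every cell type that responds to interferon, not in HSC alone. MYC, H3K27ac and H3K4me3 had 1 ChIP-seq library per genotype in KO and WT. ATAC-seq, which marks open chromatin with a transposase, had 2 libraries each in KO MycHet, KO and WT, from 50000 cells per library. With 1 library per genotype no test between genotypes was possible for ChIP-seq, and 2 ATAC libraries against 2 cannot give a two-sided exact p below 0.33.

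MYC is a basic helix-loop-helix transcription factor that binds DNA as a dimer with MAX, preferring the E-box CACGTG, and it is best known for raising the output of genes for ribosome production, metabolism and cell growth. Most strong MYC binding lies at promoters, which carry H3K4me3. Binding also occurs at enhancers, the distal elements that carry H3K27ac when active and that hold sites for lineage factors such as GATA, RUNX and ETS proteins. The kinase mTOR controls protein synthesis and growth and its excess activity drives HSC out of quiescence, and a balanced MYC level is needed for HSC to leave the niche and differentiate.

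The 12 lists differed much in length. KO and WT lists held 22086 and 8774 MYC peaks, 20036 and 10078 H3K27ac peaks, and 16019 and 15089 H3K4me3 peaks. ATAC lists held 47214 and 53722 peaks in KO MycHet 1 and 2, 19174 and 72149 in KO 1 and 2, and 17303 and 66531 in WT 1 and 2. The first KO and WT ATAC libraries thus stood apart as short lists. The lists carry no read counts, so depth is unknown, and a longer list cannot be told apart from a deeper library. Scores are the authors' peak caller values on a scale that is not stated, none is below 50, and they are compared only within 1 list. As a check of the label, 26 of 30 genes of stem cell surface proteins and cytokine receptors had an H3K4me3 peak within 1000 bp of an annotated end in KO and 27 of 30 in WT, beside 54.3% of all protein-coding genes in KO and 52.9% in WT. The shares were 44.0% and 56.0% for erythroid markers, 50.0% and 60% for megakaryocyte markers, and 34.5% and 31.0% for myeloid markers. They were 43.5% and 39.1% for stromal and endothelial markers, and 22.7% and 27.3% for B cell markers. For T and NK cell markers they were 30.0% and 23.3%. Ribosome biogenesis genes, which are not particular to HSC, stood at 95.1% and 97.6%, so a high share alone does not single out HSC. Among stem cell transcription factors the mark was found at 20 of 42 genes in KO (47.6%, below the share of all genes) and 27 of 42 in WT (64.3%), and Meis1, a homeobox factor of HSC, had none in either. Kit, one of the surface protein genes, had the mark in WT but not in KO.

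Sequence was at hand only for RefSeq promoter windows of GRCm38.p6, which run from 250 bases before to 50 bases after an annotated start, so it shows the small subset of members that hold the start of an annotated transcript. At least 150 bases of 92 windows, of 89 genes, lay in a KO member, and of 47 windows, of 45 genes, in a WT member. The 5 windows below are shown because they span what was found there: a member with a high MYC score and neither motif, 3 members in both lists with the E-box CACGTG, and a member in both lists near Lmo2 with the GATA motif. They were chosen after their values were seen. Capitals mark CACGTG, which reads the same on both strands, and AGATAA or its reverse complement TTATCT. Each sequence is given 5′ to 3′ in the direction of the annotated transcript.
Smim6, chr11:115911767-115912066, plus strand: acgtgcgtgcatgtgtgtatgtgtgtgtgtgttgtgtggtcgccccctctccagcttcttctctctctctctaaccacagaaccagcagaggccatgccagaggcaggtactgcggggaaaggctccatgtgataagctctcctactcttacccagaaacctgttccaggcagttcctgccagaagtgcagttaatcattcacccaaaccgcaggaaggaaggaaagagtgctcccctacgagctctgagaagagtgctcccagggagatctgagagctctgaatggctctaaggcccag
4930573C15Rik, chr5:146703587-146703886, plus strand: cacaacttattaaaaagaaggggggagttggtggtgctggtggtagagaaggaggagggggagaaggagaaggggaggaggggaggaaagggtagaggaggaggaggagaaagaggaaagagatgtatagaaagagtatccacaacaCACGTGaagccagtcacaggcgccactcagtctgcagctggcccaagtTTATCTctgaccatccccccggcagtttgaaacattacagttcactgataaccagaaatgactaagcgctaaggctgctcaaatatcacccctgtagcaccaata
Gm15323, chr13:112000759-112001058, plus strand: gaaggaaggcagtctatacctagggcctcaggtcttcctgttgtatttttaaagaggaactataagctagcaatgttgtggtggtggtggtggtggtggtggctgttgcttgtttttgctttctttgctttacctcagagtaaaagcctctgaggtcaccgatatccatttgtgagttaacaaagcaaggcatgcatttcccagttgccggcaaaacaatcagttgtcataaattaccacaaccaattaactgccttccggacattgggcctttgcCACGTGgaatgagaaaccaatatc
Gm40441, chr12:72844379-72844678, minus strand: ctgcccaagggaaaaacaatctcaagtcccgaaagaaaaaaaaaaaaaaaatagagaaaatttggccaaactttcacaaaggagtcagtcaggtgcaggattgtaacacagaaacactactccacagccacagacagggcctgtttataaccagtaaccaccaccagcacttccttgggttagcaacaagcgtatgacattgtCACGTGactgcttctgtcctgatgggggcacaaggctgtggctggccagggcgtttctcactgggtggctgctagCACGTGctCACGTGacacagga
Gm39895, chr2:103893810-103894109, plus strand: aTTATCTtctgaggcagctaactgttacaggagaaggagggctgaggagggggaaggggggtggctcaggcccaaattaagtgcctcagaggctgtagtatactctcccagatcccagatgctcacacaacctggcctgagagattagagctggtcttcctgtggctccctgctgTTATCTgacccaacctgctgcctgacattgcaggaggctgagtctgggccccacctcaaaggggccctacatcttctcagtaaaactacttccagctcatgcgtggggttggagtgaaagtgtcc
The Smim6 window, at the start of a gene for a small membrane protein, lay in a member with a MYC score of 284 in KO and 239 in WT, and held neither motif. The Gm40441 window, at a long non-coding RNA, held 3 copies of CACGTG in a member with scores of 89.2 in KO and 123 in WT. The 4930573C15Rik window held both motifs in a member with scores of 120.1 in KO and 107 in WT. The Gm15323 window held 1 CACGTG in a member with scores of 88.2 in KO and 93.4 in WT. These 4 sites had H3K27ac in both genotypes and ATAC peaks in both KO MycHet libraries. The Gm39895 window had no H3K27ac in either genotype.

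The E-box was about as frequent in these windows as in promoters at large. The GATA motif in windows of KO members and the RUNX motif in those of WT members had intervals above the share of all windows. CACGTG was found in 7 of 92 windows in KO members (7.61%, 95% CI 3.11 to 15.1) and in 4 of 47 in WT members (8.51%, 95% CI 2.37 to 20.4), beside 7.20% of 32585 distinct RefSeq promoter windows. In windows at MYC peaks with H3K4me3 and open chromatin it was found in 12.6% of 3542 in KO and 12.8% of 1227 in WT. AGATAA, the site of GATA factors, was in 21.7% of the windows in KO members (95% CI 13.8 to 31.6) and 19.1% in WT members (95% CI 9.15 to 33.3), against 11.2% of all windows. At H3K4me3 peaks with MYC its share was 5.67% in KO and 8.64% in WT. TGTGGTT, the site of RUNX factors, was in 9.78% of windows in KO members (95% CI 4.57 to 17.8) and 17.0% in WT members (95% CI 7.65 to 30.8), against 5.29% of all windows. The AP-1 site TGANTCA was in 14.1% and 8.51%, against 7.85%. CCGGAAG, the ETS core, was in 8.70% and 6.38%, against 8.92% of all windows and 25.3% of those at KO MYC peaks with H3K4me3. CANNTG, the general E-box that includes CACGTG, was in 78.3% and 76.6%, against 72.3%. CCACNAGG, the CTCF core, was in 2.17% and 4.26%, against 5.02%. Both strands were searched. Base composition differed between the sets, with a median GC share of 51.0% in windows of either list's members, 60.7% at KO MYC peaks with H3K4me3 and 53% over all windows, and its part in these shares was not tested.

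MYC occupancy at distal open sites was shared between genotypes for fewer than 1 in 3 KO members and about 1 in 2 WT members. A WT MYC peak overlapped 1081 of 3489 KO members (31.0%, 95% CI 29.5 to 32.5), and 17.7% of all KO MYC peaks. A KO MYC peak overlapped 1062 of 2067 WT members (51.4%, 95% CI 49.2 to 53.6), and 45.4% of all WT MYC peaks. At H3K4me3 peaks in open chromatin the shares were higher, 36.7% of 5054 KO peaks and 73.9% of 2553 WT peaks. At distal MYC peaks with no ATAC peak in either second library they were lower, 6.02% of 12301 KO peaks and 22.2% of 3550 WT peaks. Where a member was shared, its partner was nearly always a member too, in 1048 of 1081 KO cases and 1054 of 1062 WT cases.

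**Figure D1:**
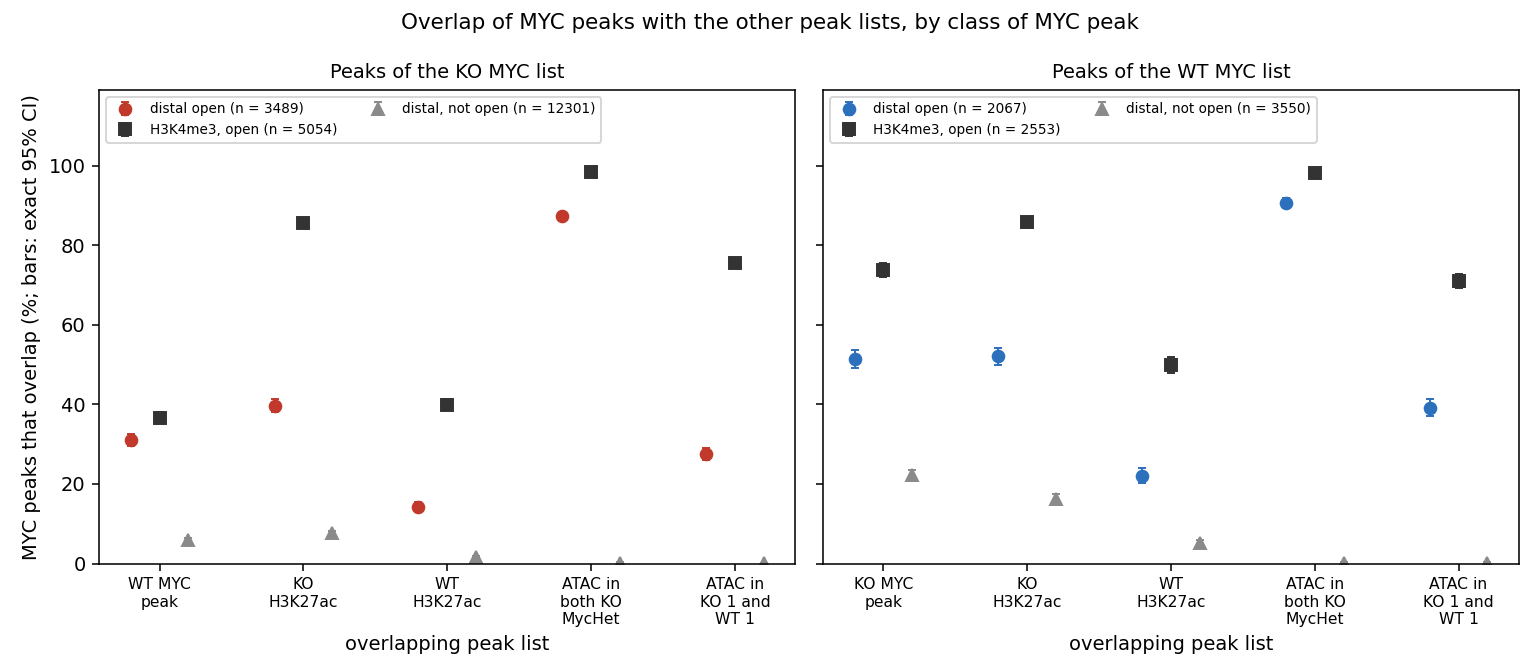
Share of MYC peaks (y axis, percent, with exact 95% CI) that overlap a peak of another list (x axis), for the KO MYC list (left) and the WT MYC list (right), by class of MYC peak. Distal open peaks (coloured circles) lie between peaks at H3K4me3 (squares) and distal peaks without open chromatin (triangles) for each list plotted.

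Merged over both lists, the members formed 4493 sites. Of these, 1040 (23.1%) held members of both lists, 2440 (54.3%) KO members only and 1013 (22.5%) WT members only. When the KO list was cut to its 8774 highest peaks, so that both lists were equally long, its lowest score was 82.99 while the WT list still reached down to 50.01. It then held 1350 members beside the 2067 of the WT list, and the sites numbered 590 with both, 760 with KO only and 1466 with WT only. In that setting the share of WT members that overlapped a KO peak fell to 29.4% and that of KO members with a WT peak was 45.4%. The direction of the difference thus turned with this cut, and its cause was not tested. Few sites missed each other by a short distance: of 2408 KO members without a WT peak, 41 (1.70%) lay within 1000 bp of one, and of 1005 WT members without a KO peak, 61 (6.07%) did.

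Sharing was more frequent among members with higher scores. Over 5 bins of equal size by MYC score, lowest first, the share of KO members with a WT peak was 17.0%, 23.6%, 24.6%, 35.8% and 53.8%. For WT members with a KO peak it was 32.1%, 38.0%, 46.6%, 59.3% and 80.9%. The median MYC score was 90.2 for shared and 68.8 for unshared KO members, and 88.2 for shared and 65.2 for unshared WT members. Among members with a score of at least 100, 51.0% of 914 KO members had a WT peak and 76.4% of 564 WT members a KO peak. Among members that also had ATAC peaks in WT 1 and KO 1, 56.4% of 959 KO members and 67.2% of 810 WT members were shared. Members made up 14.8% of the lowest-scoring and 14.5% of the highest-scoring of 5 equal bins of the KO list, and 17.6% and 28.4% in the WT list. Of the 500 highest MYC peaks, 38 were members in KO (7.6%, 95% CI 5.43 to 10.3) and 115 in WT (23.0%, 95% CI 19.4 to 26.9).

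**Figure D2:**
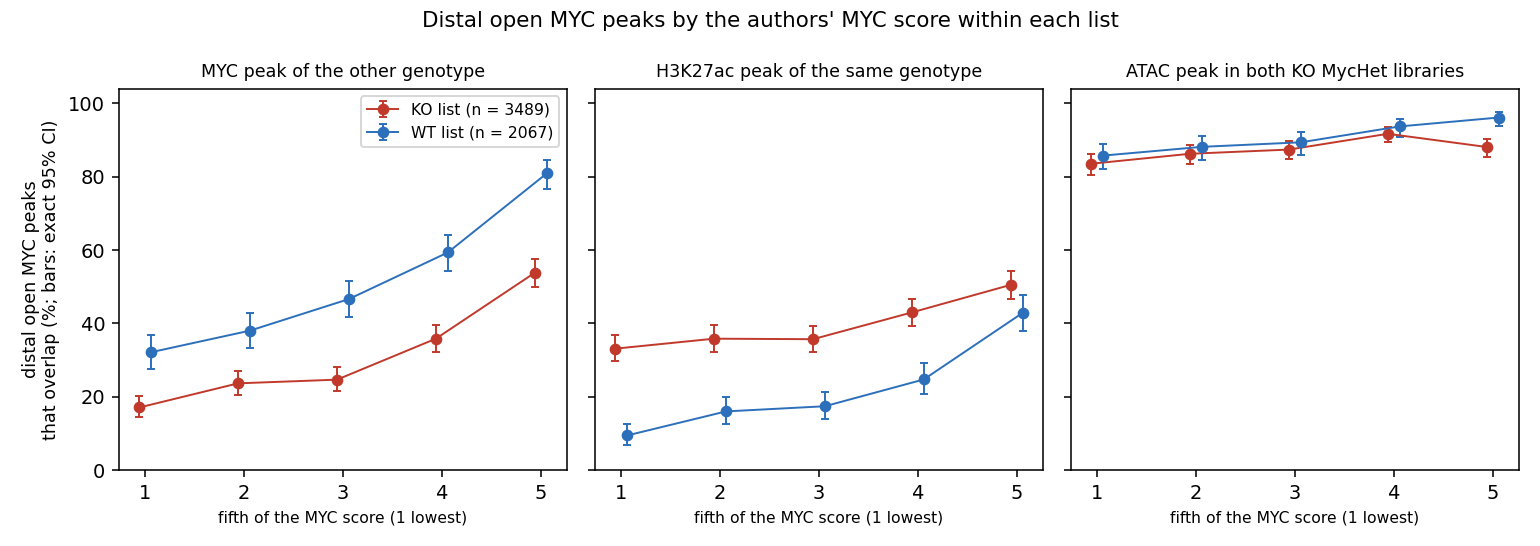
Distal open MYC peaks of the KO list (red) and the WT list (blue) in 5 bins of equal size by the authors' MYC score within each list (x axis, 1 lowest), with the share that overlaps a MYC peak of the other genotype, an H3K27ac peak of the same genotype, and an ATAC peak in both KO MycHet libraries (y axis, percent, exact 95% CI). Sharing reaches 53.8% of KO and 80.9% of WT members in the highest bin.

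H3K27ac, which the rule did not use, was present at a minority of KO members. A KO H3K27ac peak overlapped 1382 of 3489 KO members (39.6%, 95% CI 38.0 to 41.3), and 31.9% of all KO MYC peaks. A WT H3K27ac peak overlapped 500 of them (14.3%, 95% CI 13.2 to 15.5), and 13.0% of all KO MYC peaks. The mark was found in both genotypes at 390 KO members, in KO only at 992, in WT only at 110 and in neither at 1997 (57.2%). WT members overlapped a KO H3K27ac peak in 1077 of 2067 cases (52.1%, 95% CI 49.9 to 54.3) and a WT H3K27ac peak in 456 (22.1%, 95% CI 20.3 to 23.9), beside 46.5% and 23.4% of all WT MYC peaks. Thus for both MYC lists KO H3K27ac peaks were the more frequent, and the KO H3K27ac list covered 31.4 Mb against 4.71 Mb in the WT list. With the KO H3K27ac list cut to the 10078 peaks of the WT list, an alternative chosen after seeing the data, the share of KO members with KO H3K27ac was 20.9%.

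Distal open regions with MYC carried H3K27ac more often than distal open regions without it. Among 38832 ATAC peaks of KO 2 that overlapped a WT 2 peak and no H3K4me3 peak, 34334 overlapped no MYC peak of either list, and 12.6% of those had KO H3K27ac and 2.18% WT H3K27ac. Regions with MYC also had higher ATAC scores: the median KO 2 score was 502 with MYC in both genotypes, 234 with KO MYC only, 299.6 with WT MYC only and 132 without MYC. Over 5 bins of equal size by the KO 2 ATAC score, lowest first, KO H3K27ac was found at 18.0%, 18.6%, 23.7%, 31.6% and 53.9% of regions with a KO MYC peak. The shares were 6.07%, 8.24%, 10.5%, 15.2% and 26.8% of regions without MYC. The intervals of these shares did not overlap in any bin. Regions with a WT MYC peak only, thus without a KO MYC peak, had KO H3K27ac at 20.5%, 29.9%, 30.3%, 43.0% and 51.9%. That was above the share of regions with a KO MYC peak in each bin but the highest. KO H3K27ac was thus not particular to regions with MYC called in KO. The MYC share itself ran with openness. A KO MYC peak was found at 3.42% of regions in the lowest bin and 23.3% in the highest, and a WT MYC peak at 1.31% and 17.3%.

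H3K27ac was more frequent at sites bound in both genotypes. It was found in KO at 61.7% of shared (95% CI 58.7 to 64.6) and 29.7% of unshared KO members (95% CI 27.9 to 31.6). In WT it was found at 29.2% of shared (95% CI 26.5 to 32.0) and 14.5% of unshared WT members (95% CI 12.4 to 16.9). It was also found in WT at 38.7% of the 564 WT members with a MYC score of at least 100. Shared members were wider than unshared ones, with a median of 615 against 482 bp in KO and 492 against 375 bp in WT. Their MYC scores were higher as well. The part of width and score in these H3K27ac shares was not tested.

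Most members also had an ATAC peak in KO MycHet HSC, which carry 1 floxed Myc allele beside the floxed Mtor alleles. Among KO members 3049 had an ATAC peak in both KO MycHet libraries (87.4%, 95% CI 86.2 to 88.5), 109 in library 1 only, 184 in library 2 only and 147 in neither (4.21%, 95% CI 3.57 to 4.93). Over all KO MYC peaks, open or not, 37.6% had it in both and 58.7% in neither. The rule asked for ATAC peaks in KO 2 and WT 2 and so favoured this gap, for either MYC list. Among WT members 1873 had an ATAC peak in both KO MycHet libraries (90.6%, 95% CI 89.3 to 91.8) and 68 in neither (3.29%), beside 51.0% and 44.8% of all WT MYC peaks. Distal open regions without MYC had it in both libraries in 56.0% of cases and in neither in 22.0%, and MYC peaks of the KO list at H3K4me3 in both in 98.3%.

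The KO MycHet lists held fewer peaks than that of KO 2 but covered 54.0 Mb in library 1 and 44.6 Mb in library 2, against 50.1 Mb in KO 2. The 147 KO members open in neither KO MycHet library had a median KO 2 ATAC score of 85.5 (quartiles 64.7 and 120.5) and a median WT 2 score of 99.3. The 3049 open in both had medians of 350.1 (quartiles 202 and 558) and 339. An ATAC peak in KO 1, a library the rule did not use, was found at 4.08% of the 147 and 49.0% of the 3049. KO H3K27ac was found at 23.8% (95% CI 17.2 to 31.5) and 41.8% (95% CI 40.0 to 43.6) of them. Within each of the 5 bins by KO 2 score, regions with a KO MYC peak were called in both KO MycHet libraries more often than regions without MYC. The bins are wide, the highest running from 282 to 1755, so scores may still differ within a bin. From the lowest bin up, the shares were 36.5%, 60.2%, 77.2%, 93.8% and 99.7% with a KO MYC peak, and 19.4%, 32.6%, 57.9%, 84.8% and 98.9% without. The intervals were apart in each bin, and in the highest the shares differed by under 1 percentage point. Whether the loss of 1 Myc allele changed accessibility was not tested, since the lists hold no signal below their threshold.

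**Figure D3:**
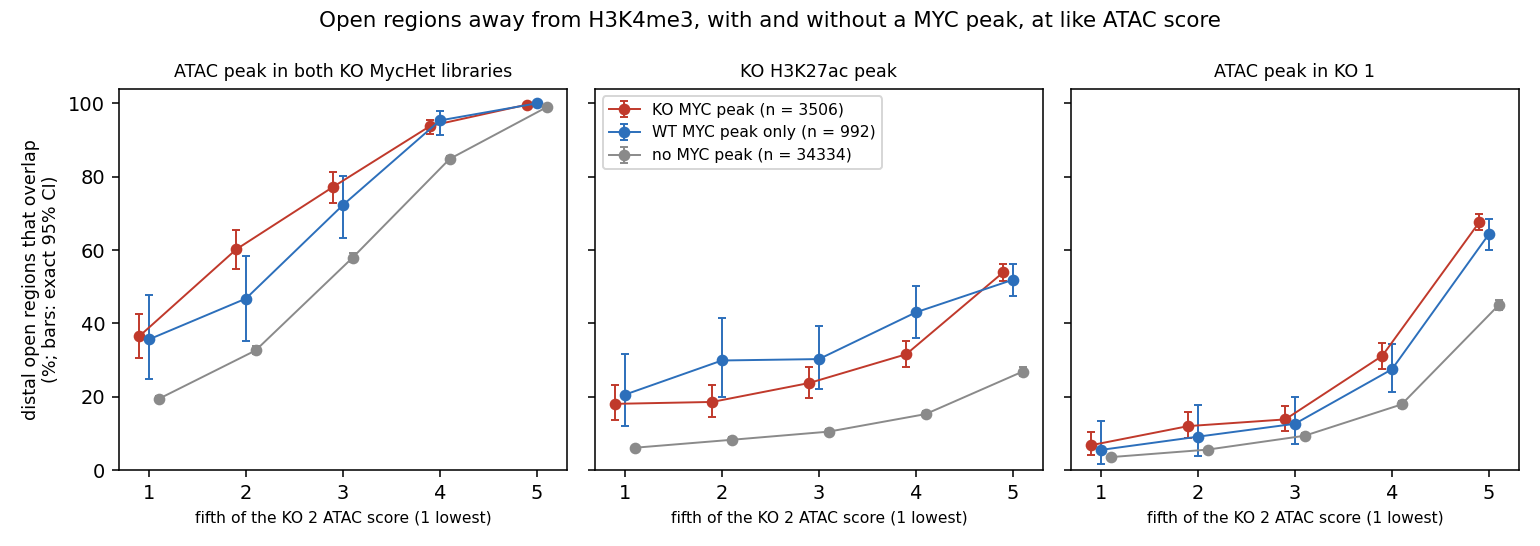
Distal open regions of KO 2 with a KO MYC peak (red), a WT MYC peak only (blue) or none (grey) in 5 bins of equal size by the KO 2 ATAC score (x axis, 1 lowest), with the share (y axis, percent, exact 95% CI) that overlaps an ATAC peak in both KO MycHet libraries, a KO H3K27ac peak, or an ATAC peak in KO 1. Regions with KO MYC lie above regions without MYC in each panel, and the gap for KO MycHet narrows to under 1 percentage point in the highest bin.

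The first KO and WT ATAC libraries, with their short lists, had peaks at far fewer of the members. KO 1 had a peak at 1525 of 3489 KO members (43.7%) and WT 1 at 1261 (36.1%), and both had one at 959 (27.5%, 95% CI 26.0 to 29.0), beside 21.8% of all KO MYC peaks. For WT members both had a peak at 810 of 2067 (39.2%, 95% CI 37.1 to 41.3), beside 30.3% of all WT MYC peaks. All 6 libraries were open at 953 KO members (27.3%) and 807 WT members (39.0%). Over all MYC peaks these shares were 21.6% in KO and 29.8% in WT. Among distal open regions without MYC, counted as KO 2 ATAC peaks and not as MYC peaks, the share was 5.44%. Those regions also had lower KO 2 ATAC scores. In the highest bin of that score, KO 1 had a peak at 67.5% of regions with a KO MYC peak and 44.9% of those without MYC. Of the 953, 600 (63.0%) had H3K27ac in KO or WT and 353 (37.0%) in neither.

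The highest MYC scores among members marked a mixed set of sites. They are named by the nearest protein-coding gene, which need not be the gene a site acts on. The highest KO member lay in C2cd5, a gene for a membrane trafficking protein, at chr6:143057144-143057911. It scored 865 for MYC in KO and 415 in WT, and 122 in KO and 169 in WT for H3K27ac. Its ATAC scores were 915 and 899 in KO MycHet 1 and 2, 1279.8 in KO 2, and 141 and 1241 in WT 1 and 2, with no peak in KO 1. MYC was thus found there in KO and WT, and open chromatin in all 3 genotypes.

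A member in Mocos, which encodes the molybdenum cofactor sulfurase, had MYC scores of 749 in KO and 427 in WT without any H3K27ac peak. Its ATAC scores were 117 and 157 in KO MycHet 1 and 2, 155 in KO 2 and 162 in WT 2. A member in Cacng4, a gene for an auxiliary calcium channel subunit, was alike, with 579 in KO and 391 in WT and no H3K27ac. Both sites lay at percentiles of 99.2 to 99.8 of the MYC lists, and their ATAC scores lay at percentiles of 34.4 to 60.1 of their lists.

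Other high KO members had no WT peak. One lay 576 bp from Lypd4 at chr7:24863055-24864041 with a KO MYC score of 639, H3K27ac scores of 215 in KO and 113 in WT, and ATAC scores of 123 in KO 2 and 113 in WT 2. It had no ATAC peak in either KO MycHet library, nor in KO 1 or WT 1. Another lay 63741 bp from Rhob, which encodes a small GTPase, with 608, and a further one 76303 bp from Cdkn2b, which encodes the CDK inhibitor p15, with 514. Both were open in both KO MycHet libraries, with ATAC scores of 84.4 and 144 near Rhob and 83.5 and 55.6 near Cdkn2b. A member in Spag1, a gene of dynein arm assembly, scored 568 in KO and 270.3 in WT and was open in all 6 libraries.

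A site at the start of chromosome 9 stood apart. Its KO member ran from 2999979 to 3007020 with a MYC score of 569, and its WT member from 3000001 to 3001606 with 2136, the highest of any WT member. Its H3K27ac scores were 1335 in KO and 1270.4 in WT. Its ATAC scores were 1444 in KO MycHet 2, 991 and 1222 in KO 1 and 2, and 1212 and 1478 in WT 1 and 2, with no peak in KO MycHet 1. It lay at percentiles of 98.3 to 100.0 of each of the 9 lists in which it had a peak, so its scores were high whatever was assayed. The nearest gene, Alkbh8, lay 328211 bp from the KO peak. After that site, Mocos, C2cd5 and Cacng4, the next highest WT member lay in Evi5, a gene for a GTPase-activating protein, with 420 in KO and 377 in WT. 

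**Figure D4:**
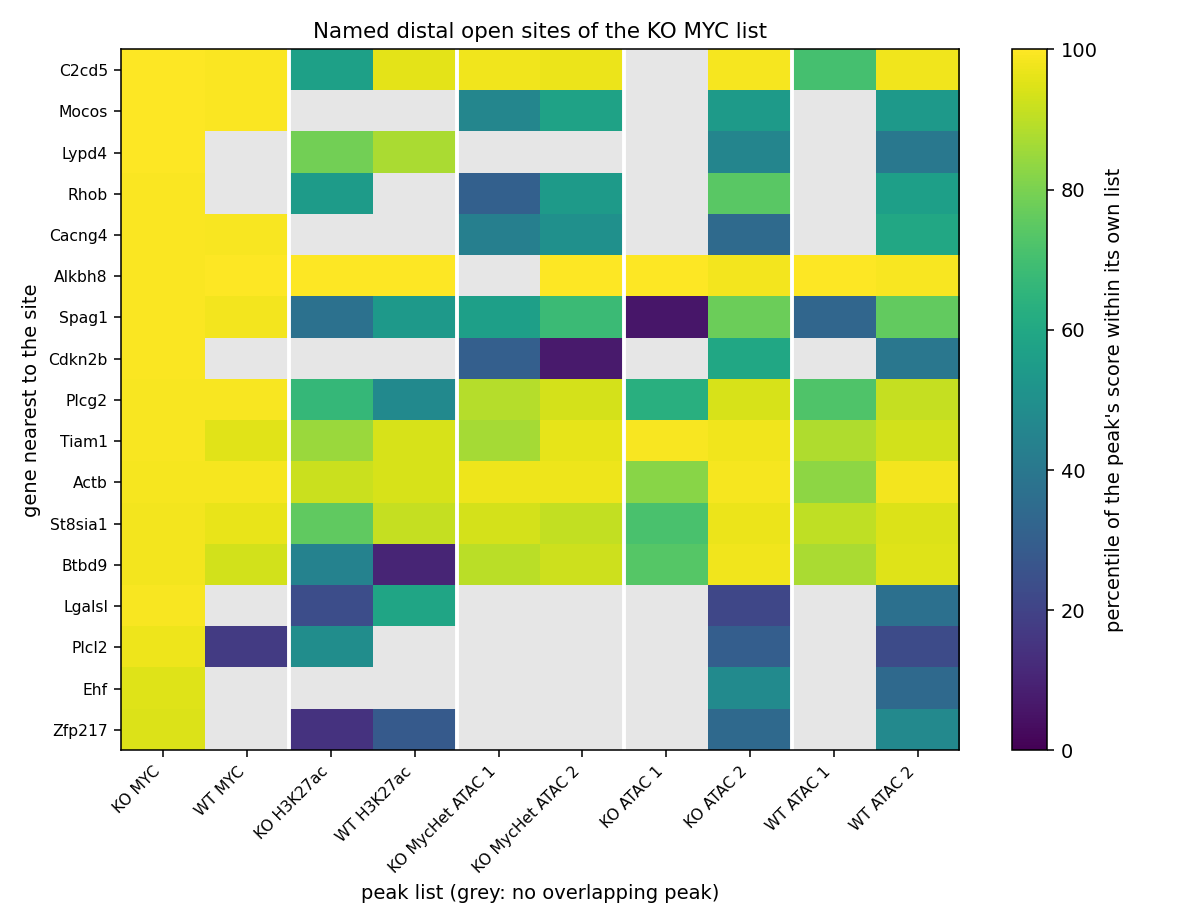
Percentile of the peak score within its own list (colour) for 10 lists (columns) at the named distal open sites of the KO MYC list (rows, by nearest gene); grey means no overlapping peak. The sites from Plcg2 to Btbd9 have a peak in each list, and those from Lgalsl to Zfp217 have none in either KO MycHet library.

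Sites with MYC in both lists, H3K27ac in both genotypes and ATAC peaks in all 6 libraries numbered 167 among KO members. After Spag1, the highest lay in Plcg2, which encodes phospholipase C gamma 2 of immune receptor signalling, with MYC scores of 453 in KO and 337 in WT. Its H3K27ac scores were 156 in KO and 64.9 in WT, and its ATAC scores 509 and 699 in KO MycHet, 108 and 801 in KO, and 147 and 773 in WT libraries 1 and 2. Near Tiam1, a gene for an activator of Rac, MYC scored 423 in KO and 188 in WT. Near Actb, the gene for cytoplasmic actin, MYC scored 398 in KO and 297.5 in WT, in St8sia1, which encodes the ganglioside GD3 synthase, 335 in KO and 217 in WT, and in Btbd9 325 in KO and 160.2 in WT. Among members without a KO MycHet ATAC peak, the highest after Lypd4 lay near Lgalsl, a galectin-related gene, with a KO MYC score of 445, in Plcl2, a phospholipase C-like gene, with 272, near Ehf, an ETS factor gene, with 213, and near Zfp217, a zinc finger gene, with 207. Only the Plcl2 site of these 4 had a WT MYC peak, with a score of 54.04. KO 2 ATAC scores at these 4 sites were low, 75.04 at Lgalsl, 88.5 at Plcl2, 131 at Ehf and 96.2 at Zfp217.

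Members lay far from gene ends, as the rule would favour. The median distance to the nearest annotated end of a protein-coding gene was 16.9 kb for KO and 17.2 kb for WT members, against 0.356 kb for KO and 0.594 kb for WT MYC peaks at H3K4me3. Within 2.5 kb of an end lay 348 KO members (9.97%) and 222 WT members (10.7%), beside 23.4% of all KO and 27% of all WT MYC peaks (2370 of 8774). A protein-coding gene was touched by 1920 KO members (55.0%) and 1124 WT members (54.4%), and the gene table gives no exons, so introns were not told from exons. Just inside the rule, 105 KO and 67 WT members lay within 1000 bp of an H3K4me3 peak. Just outside it, 17 open peaks of each list were left out for under 100 bp of overlap with one.

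A few members held the start of an annotated transcript. Leaving out chromosome 18, for which no starts were at hand, 91 of 3392 KO members (2.68%) did, 34 at protein-coding and 57 only at lncRNA genes, and 45 of 2002 WT members (2.25%), 14 and 31. Among them was the start of Hnrnpa2b1, which encodes an RNA-binding protein, within a shared member that scored 129.8 in KO and 83.0 in WT and, in KO, reached into the promoter window of Cbx3 as well. No H3K4me3 peak was listed there in either genotype, and whether the mark was absent or only not called was not tested.

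Members were mostly single. Another member of the same list lay within 10 kb of 360 KO members (10.3%) and 200 WT members (9.68%), and no run held more than 4. Of 21631 protein-coding genes, 2675 (12.4%) were nearest to a KO member, 1648 (7.62%) to a WT member and 1108 (5.12%) to both. Gse1 was nearest to 9 KO and 5 WT members, Prex1, which encodes a Rac activator, to 7 and 4, Pde4d, which encodes a cAMP phosphodiesterase and is 1302 kb long, to 6 and 6, Serp2 to 6 and 4, and Runx1 to 6 and 4. Among the Serp2 sites, 3 neighbours at a distance of 116584 to 136743 bp were bound in both genotypes, the strongest with scores of 219.8 in KO and 329 in WT.

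Of the 549 genes on 19 lists, 546 were matched to the gene table. Transcription factors of HSC were nearest to members more often than genes at large: 23 of 42 were nearest to a KO member (54.8%, 95% CI 38.7 to 70.2), 17 to a WT member (40.5%, 95% CI 25.6 to 56.7) and 15 to both. These genes also have many more open regions around them, 8.79 distal open ATAC regions per gene against 1.80 over all protein-coding genes. Of those 369 regions, 11.7% overlapped a KO MYC peak (95% CI 8.56 to 15.4), against 9.03% of all 38832, and 8.13% a WT MYC peak (95% CI 5.55 to 11.4), against 5.31%. Per region, the KO interval included the share over all regions, and the WT interval lay just above it.

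**Figure D5:**
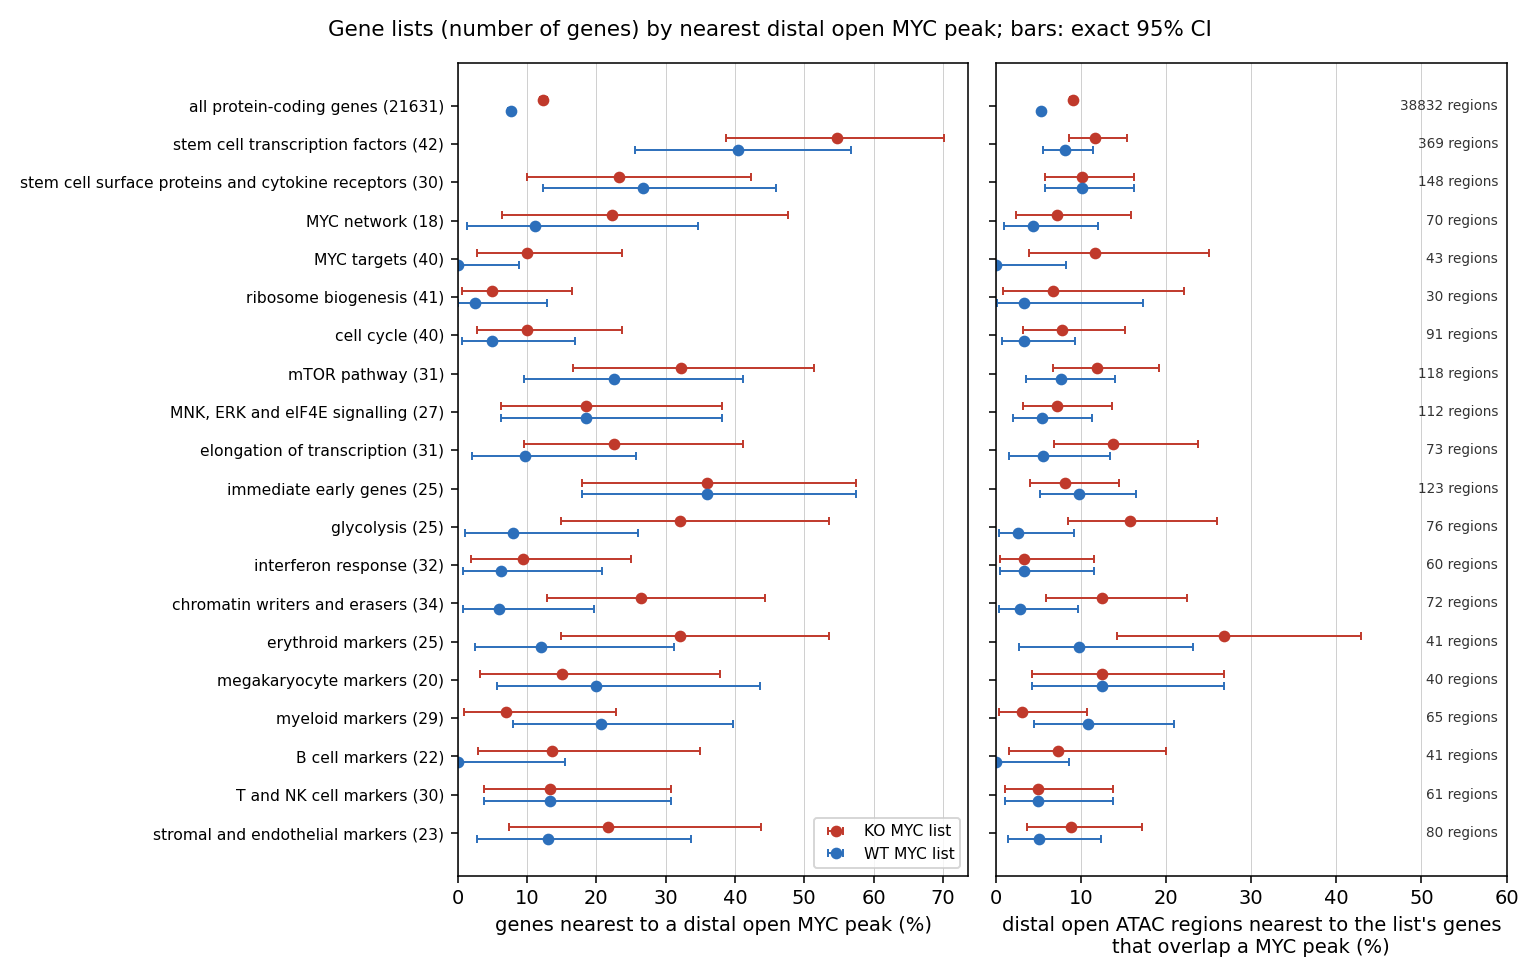
For each gene list (rows, number of genes in brackets), the share of genes nearest to a distal open MYC peak (left, percent) and the share of distal open ATAC regions nearest to those genes that overlap a MYC peak (right, percent), for KO (red) and WT (blue), with exact 95% CI. Stem cell transcription factors stand at 54.8% and 40.5% on the left but at 11.7% and 8.13% on the right.

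Runx1, a master regulator of blood stem cell emergence, had 6 KO and 4 WT nearest members, of which 3 were shared. The KO member with the highest score lay inside the gene at chr16:92800333-92801478, with MYC scores of 103 in KO and 67.9 in WT and no H3K27ac in either. It had ATAC scores of 370 and 60.4 in KO MycHet 1 and 2, 580 in KO 2, and 138 and 796 in WT 1 and 2. Meis1 had 2 shared members inside the gene, with KO scores of 53.5 and 81.6, open in all 6 libraries and without H3K27ac. A member 27277 bp from Ikzf1, which encodes the lymphoid and stem cell factor Ikaros, scored 103 in KO and 123 in WT, had H3K27ac scores of 165 in KO and 58.0 in WT, and was open in all 6. Near Zfp36l2, which encodes an RNA-binding protein of HSC self-renewal, the strongest member scored 246 in KO and 127 in WT, and in Nfe2, a factor of platelet formation, 209 in KO and 129 in WT. A KO member 14908 bp from Egr1, a zinc finger factor of HSC quiescence, scored 170.2 and had no WT peak. Egr1 also had 1 shared KO member, and its 2 WT members, at up to 94.0, were both shared.

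Lmo2, which encodes a bridging factor of the GATA and TAL1 complex, shows how sharing depends on the overlap asked for. The member that holds the Gm39895 start shown above lay 63446 bp from the gene and scored 92.4 in KO and 53.3 in WT. Closer to the gene, a KO member at chr2:103945604-103946198 scored 60.5 and a WT member at chr2:103944771-103945484 scored 125. They did not overlap, lay within 1000 bp of each other and shared their H3K27ac peaks, with scores of 83.6 in KO and 159 in WT.

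Among surface proteins and cytokine receptors of HSC, 7 of 30 genes were nearest to a KO member (23.3%, against 12.4% of all genes) and 8 to a WT member (26.7%, against 7.62%). They had 4.93 distal open regions per gene, of which 10.1% overlapped a KO MYC peak and 10.1% a WT MYC peak (95% CI 5.78 to 16.2 for each). The highest KO member, at 311 and without a WT peak, lay 146314 bp from Itga4, which encodes an integrin of homing to the marrow. Of the 3 KO members of Itga4, 1 was shared, and its 2 WT members, at up to 65.1, were both shared. A member 80304 bp from Cxcr4, the receptor that holds HSC in the marrow, scored 232 in KO and 64.0 in WT, and one near Ifnar1, the type I interferon receptor gene, scored 187 in KO and 127 in WT. Tgfbr2, which encodes a receptor for the quiescence signal TGF-beta, had 1 KO member and, at other places, 4 WT members, none of them shared.

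Genes of growth, the best known MYC targets, did not stand apart from genes at large. For MYC targets, ribosome biogenesis and cell cycle, the intervals of both lists included the share of all genes. Of 40 MYC targets, 4 were nearest to a KO member (10.0%, 95% CI 2.79 to 23.7, against 12.4% of all genes). None was nearest to a WT member (95% CI 0.0 to 8.81, against 7.62% of all genes). These genes had 1.075 distal open regions each, and 11.6% of those 43 regions overlapped a KO MYC peak (95% CI 3.89 to 25.1), a share near the 9.03% of all regions. Odc1, which encodes the first enzyme of polyamine synthesis, had the highest KO member at 73.5, followed by Ddx21, a nucleolar helicase gene, at 64.8 and Tfap4, a transcription factor gene, at 55.0. Of 41 ribosome biogenesis genes, 2 had a KO member (4.88%) and 1 a WT member (2.44%), with Nol6 at 117 and Heatr1 at 59.7 in KO. Of 40 cell cycle genes, 4 had a KO member (10.0%) and 2 a WT member (5.0%). The E2f2 member scored 180 in KO and 209 in WT. In the MYC network, 4 of 18 genes had a KO member (22.2%, 95% CI 6.41 to 47.6) and 2 a WT member (11.1%, 95% CI 1.38 to 34.7). The strongest lay 122382 bp from Max, the partner of MYC, with scores of 94.9 in KO and 90.0 in WT, H3K27ac scores of 240 in KO and 125 in WT, and ATAC scores of 170.0 and 285 in KO MycHet, 265 in KO 2 and 221 in WT 2.

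Of 31 mTOR pathway genes, 10 were nearest to a KO member (32.3%, against 12.4% of all genes) and 7 to a WT member (22.6%, against 7.62%). They had 3.81 distal open regions per gene, and per region the KO MYC share was 11.9% (95% CI 6.64 to 19.1), near the 9.03% of all regions. Tsc2, which encodes an inhibitor of mTORC1, had the highest KO member at 118, and Rptor, the mTORC1 subunit gene, had a KO member at 87.3 and at another place a WT member at 149, which did not overlap. For MNK, ERK and eIF4E signalling 5 of 27 genes had a KO and 5 a WT member. These shares were 18.5% each (95% CI 6.30 to 38.1), and the interval included the 12.4% and 7.62% of all genes. Members near Dusp6 and Spry1, both genes of ERK feedback inhibitors, scored 281 and 279 in KO. The Spry1 site scored 162 in WT, whereas the Dusp6 site had no WT peak. Dusp6 had 2 WT members at other places, with scores of up to 105. Of 31 elongation genes 7 had a KO member (22.6%, 95% CI 9.59 to 41.1) and 3 a WT member (9.68%, 95% CI 2.04 to 25.8). Both intervals included the share of all genes. The strongest of these members lay near Polr2a, the gene of the largest RNA polymerase II subunit, at 153 in KO. Of 25 immediate early genes, 9 were nearest to a KO member and 9 to a WT member (36.0% each, against 12.4% and 7.62% of all genes). They had 4.92 distal open regions per gene, of which 8.13% overlapped a KO MYC peak and 9.76% a WT MYC peak, against 9.03% and 5.31% of all regions. Ier5 had the highest KO member after Egr1, at 126.

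Glycolysis genes were nearest to a KO member in 8 of 25 cases (32.0%, 95% CI 14.9 to 53.5, against 12.4% of all genes). They were nearest to a WT member in 2 (8.0%, against 7.62%). Of their 76 distal open regions, 15.8% overlapped a KO MYC peak (95% CI 8.43 to 26.0) and 2.63% a WT MYC peak (95% CI 0.320 to 9.18), beside 9.03% and 5.31% of all regions. Hk1, which encodes hexokinase 1, had 4 KO members, with scores of 69.9, 52.7, 261 and 55.8 and none shared. At Eno1, the enolase gene, a KO member scored 50.9 and a WT member at another place 147. Chromatin writers and erasers had 9 of 34 genes with a KO member (26.5%, against 12.4% of all genes) and 2 with a WT member (5.88%, against 7.62%). Per region their shares were 12.5% for KO MYC (95% CI 5.88 to 22.4) and 2.78% for WT MYC (95% CI 0.338 to 9.68), and both intervals included the share over all regions. Among them were Kdm1a, a histone demethylase gene, at 202, Ezh2, the Polycomb methyltransferase gene, at 153 and Dnmt3a, a DNA methyltransferase gene, at 125 in KO. Interferon response genes had 3 of 32 in KO (9.38%) and 2 in WT (6.25%), near the 12.4% and 7.62% of all genes. Among them was Oas3, an antiviral enzyme gene, at 108 in KO and 103 in WT. The longer KO list ran in the same direction as the differences for glycolysis and chromatin genes, and its part in them was not tested.

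Markers of other blood cells were also among the nearest genes, beside 12.4% of all protein-coding genes for KO and 7.62% for WT members. For most of these lists the interval included the share of all genes. It lay above that share for erythroid markers in KO (32.0%, 95% CI 14.9 to 53.5) and myeloid markers in WT (20.7%, 95% CI 7.99 to 39.7). For erythroid markers 8 of 25 genes had a KO and 3 a WT member, and 26.8% of their 41 distal open regions overlapped a KO MYC peak (95% CI 14.2 to 42.9) against 9.03% of all regions, the highest share of any list. A KO member in Gata1, which encodes the erythroid and megakaryocyte GATA factor, scored 88.5, and one in Alas2, which encodes the first enzyme of erythroid heme synthesis, scored 53.8. Neither had a WT peak. Megakaryocyte markers had 3 of 20 in KO and 4 in WT, with a shared member in Selp, the P-selectin gene, at 209 in KO and 160.3 in WT. Myeloid markers had 2 of 29 in KO and 6 in WT, with a shared member near Cebpe, a granulocyte factor gene, at 180 in KO and 137 in WT. B cell markers had 3 of 22 in KO and 0 in WT, and T and NK cell markers 4 of 30 in each list, with a shared member near Lck, a T cell kinase gene, at 144 in KO and 251 in WT. Stromal and endothelial markers had 5 of 23 in KO and 3 in WT, among them Flt1, a VEGF receptor gene, at 182 in KO and 188 in WT. Whether cells other than HSC contributed to these sites was not tested.

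At the manipulated genes themselves the members were few. Mtor (chromosome 4, 148448582 to 148557685) had 1 KO member inside the gene, at chr4:148509417-148509784, with a MYC score of 59.8. It had H3K27ac scores of 51.2 in KO and 54.7 in WT, ATAC peaks in all 6 libraries, and no WT MYC peak. Myc (chromosome 15, 61985341 to 61990361) had 1 KO member 230540 bp downstream, at chr15:62220901-62221424, with a MYC score of 62.2 and no H3K27ac. Its ATAC scores were 159 and 118 in KO MycHet 1 and 2, 164 in KO 2 and 191 in WT 2. Within 2000 kb downstream of Myc, where distal blood enhancers of Myc are known to lie in mouse, the only other member was a KO one about 1689 kb away, near Gsdmc, with a MYC score of 54.8, a KO H3K27ac score of 110.0, and ATAC scores of 130.0 and 84.0 in KO MycHet 1 and 2, 173 in KO 2 and 227 in WT 2. No WT member was found there.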

How the data were processed

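MYC, H3K27ac and H3K4me3 ChIP-seq (1 library per genotype) and ATAC-seq (2 libraries per genotype) were available as 12 deposited peak lists. Another 8 RNA-seq samples were not analysed here. The authors called the peaks before they deposited the lists, in which each peak has a name that starts with MACS and a score whose scale is not stated. The submitters' processing notes name mm10, CASAVA, TopHat and Cufflinks, without versions. Which aligner and caller settings made these peaks is not given in the sources used here, and neither is depth. Nothing says that libraries of a group came from separate animals, so their spread may be technical.

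Peaks on chromosomes 1 to 19 and X were overlapped by at least 1 bp in Python 3.11.15 with pandas 2.3.3, numpy 2.4.6 and scipy 1.17.1, checked on simulated data and against bedtools 2.31.1, which gave the same count in each of 44 comparisons. Shares have exact Clopper-Pearson 95% intervals. Nearest genes are protein-coding genes of the RefSeq table of GRCm38.p6, measured from the peak. The sites and gene lists were chosen with earlier results of these data known. Sites are named as follows: the 8 KO and 5 WT members with the highest MYC score, the 6 highest bound in both genotypes with H3K27ac in both and ATAC in all 6 libraries, the 5 highest without a KO MycHet peak, the 5 genes nearest to the most KO members, and from each gene list up to 3 genes by KO score and up to 2 with WT members that overlap no KO peak. That rule passes over predicted genes and RIKEN clones, and Mtor and Myc were always looked at. Of the genes this rule names, a single one is not reported here. Meis1, Ikzf1, Hnrnpa2b1, Gsdmc, Alas2 and the printed sequences were chosen after their values were seen. A motif search in the middle of all members needs a genome and was replaced by a search of RefSeq promoter windows with at least 150 bases in a peak.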

Additional observations from a re-analysis of the deposited data

How the results depend on the processing

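No paired analysis was possible because no test was made: ChIP-seq had 1 library per genotype, and the replicate numbers of the ATAC libraries give no fit on peak lists. Of 69 alternative values, 22 moved by less than their counting interval or, for counts of members, by under 1.5 times, and 47 moved further. The 22 include the values of WT members other than sharing under the cut of the KO list, which that cut could not change. The cause of the moves was not tested beyond the construction of each alternative. With at least 0.5 of the MYC peak covered, 26.97% of KO members were shared, 37.9% of KO and 16.4% of WT members had H3K27ac of their own genotype, 89.8% of KO and 91.9% of WT members were open in both KO MycHet libraries, and 25.04% of KO and 35.9% of WT members in both first libraries. With a MYC score of at least 100, 914 KO and 564 WT members were left. Of these, 51.0% in KO and 76.4% in WT were shared, 49.1% and 38.7% had H3K27ac, 88.5% and 96.1% were open in both KO MycHet libraries, 35.6% and 58.5% in both first libraries, and 8.10% and 9.40% lay within 2.5 kb of a gene end. With ATAC peaks required in WT 1 and KO 1 as well, 959 KO and 810 WT members were left. Of these, 56.4% in KO and 67.2% in WT were shared, 57.9% and 30.6% had H3K27ac, 99.4% and 99.6% were open in both KO MycHet libraries, and 11.8% in KO lay within 2.5 kb of a gene end. With the KO list cut to the length of the WT list there were 1350 KO members, of which 45.4% were shared, 46.9% had H3K27ac, 89.9% were open in both KO MycHet libraries and 33.1% in both first libraries, and 29.4% of WT members were shared. With the KO H3K27ac list cut likewise, 20.9% of KO members had H3K27ac. That cut, and the merged sites from MYC lists of equal length, were chosen after seeing the data. Leaving out 1 ATAC library of a pair gave 1269 to 1542 KO members and 1073 to 1128 WT members. It gave 90.5% to 92.7% of KO and 92.4% to 94.97% of WT members open in the KO MycHet library kept. It gave 36.1% to 43.7% of KO and 51.5% to 54.0% of WT members open in the first library kept. Leaving out members within 2.5 kb of a gene end moved no value past these limits. Depth is unknown, and a region without a peak may hold signal below the threshold of its list.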

Other observations

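Some MYC peaks away from H3K4me3 were open in only 1 of the second ATAC libraries. They numbered 755 in the KO list, 314 of them open in KO 2 only and 441 in WT 2 only. In the WT list they numbered 214, 81 open in KO 2 only and 133 in WT 2 only. For either list the peaks open in WT 2 only were the more numerous, while the WT 2 list held fewer peaks and covered more bases (60.5 Mb) than the KO 2 list (50.1 Mb). Of the 953 KO members open in all 6 ATAC libraries, 539 (56.6%) had a WT MYC peak, and of 807 such WT members 541 (67.0%) had a KO MYC peak.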
